A study of Mus musculus with 4 samples.

Results

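RNA of 9 genes linked to methylation of lysine 4 of histone H3 (H3K4), other than the KMT2D complex, was followed in single cells of the *Tbx1* lineage. The genes encode writers and erasers of this methylation, a relative of the writers (*Kmt2e*) and a scaffold of writer complexes (*Men1*). They were chosen by symbol and not by their values: *Kmt2a*, *Kmt2b*, *Kmt2e*, *Setd1a*, *Setd1b*, *Men1*, *Kdm1a*, *Kdm5a* and *Kdm5b*, which are 9 of the 32285 genes listed in the count files. GFP+ cells were sorted from the pharyngeal region and heart of mouse embryos at E9.5, labelled outbred Swiss Webster and kept, by the study's methods, on a mixed background of C57BL/6 and Swiss Webster, and transcripts were counted by unique molecular identifiers (UMIs) in droplet-based 3′ single-cell RNA-Seq. There were 4 libraries, 2 of cHet embryos (Tbx1Cre/+; Kmt2d F/+; GFP F/+) and 2 of cKO embryos (Tbx1Cre/+; Kmt2d F/F; GFP F/+). The Rep1 libraries each pooled 4 embryos and were made with the Next GEM kit. The Rep2 libraries each pooled 3 embryos and were made with the GEM-X kit. The file headers name version 7.0.1 of the counting software Cell Ranger for Rep1 and 8.0.1 for Rep2. Replicate, kit, pool size and this version thus cannot be told apart. Embryos of a pool could not be separated, so the library was the replicate, with n = 2 per genotype. In both genotypes the Cre occupied a *Tbx1* allele, so all embryos were heterozygous for *Tbx1*, only cells in which *Tbx1* had driven the Cre were sorted, and no library came from embryos without Cre.

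Methylation of H3K4 marks active regulatory DNA. KMT2D and its relative KMT2C place the lowest methylation state mainly at enhancers, SETD1A and SETD1B place the higher states at active promoters, and KMT2A and KMT2B act at selected promoters, among them those of *Hox* genes, in complexes that hold menin, the product of *Men1*. KMT2E resembles these enzymes and binds methylated H3K4 but is not known to methylate it. KDM1A removes the lower methylation states within corepressor complexes, and KDM5A and KDM5B remove the higher states. The comparisons addressed whether RNA of these genes differed among the cell types of the lineage, and whether it differed between cKO and cHet, where other writers or erasers might change when KMT2D is lost.

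On GRCm38, *Kmt2a* lies at chr9:44803355-44881296 (minus strand), *Kmt2b* at chr7:30568858-30588726 (minus), *Kmt2e* at chr5:23434441-23504235 (plus), *Setd1a* at chr7:127776670-127800122 (plus) and *Setd1b* at chr5:123142193-123168629 (plus). *Men1* lies at chr19:6334979-6340891 (plus), *Kdm1a* at chr4:136550540-136602723 (minus), *Kdm5a* at chr6:120364124-120444574 (plus) and *Kdm5b* at chr1:134560171-134635285 (plus). The 3′ end of *Kmt2e* overlaps *Srpk2*, and that of *Kdm1a* overlaps *Luzp1*, both on the opposite strand. The use of strand in counting was not given in the sources used here, so the counts of these overlapping genes are uncertain to that extent. Promoter windows of *Men1* and *Kdm5b* are shown because these genes differed most among cell types, in opposite directions in the endothelium. Each window holds 250 bases before the start of the gene in RefSeq (GRCm38.p6) and has 300 bases in all, at chr19:6334729-6335028 for *Men1* and at chr1:134559928-134560227 for *Kdm5b*, both on the plus strand, with the dinucleotide CG in capitals.
Men1: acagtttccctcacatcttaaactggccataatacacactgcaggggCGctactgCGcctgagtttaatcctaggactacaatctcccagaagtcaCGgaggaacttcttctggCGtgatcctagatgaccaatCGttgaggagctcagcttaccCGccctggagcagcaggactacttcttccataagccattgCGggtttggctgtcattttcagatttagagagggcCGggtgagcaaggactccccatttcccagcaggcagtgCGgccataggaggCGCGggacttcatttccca
Kdm5b: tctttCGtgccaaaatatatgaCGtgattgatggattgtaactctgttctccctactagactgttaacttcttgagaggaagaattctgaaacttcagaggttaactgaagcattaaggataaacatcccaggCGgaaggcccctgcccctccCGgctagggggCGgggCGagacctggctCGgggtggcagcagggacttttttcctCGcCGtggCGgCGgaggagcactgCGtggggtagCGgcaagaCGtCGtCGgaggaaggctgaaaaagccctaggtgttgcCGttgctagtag
The *Men1* window held 11 CG and the *Kdm5b* window 17, which was more than in 58.1% and 68.1% of all promoter windows of this length. *Men1* had 3 entries, of which the first is shown, and the windows of the other 2 held 16 CG each (more than 66.5% of windows). CG reads the same on both strands, and 94.2% of the windows of 27025 genes held it, with a median of 7. Of the 9 genes, 5 had an entry in the promoter table, and the windows of *Kmt2a*, *Setd1a* and *Kdm1a* held 36, 35 and 29 CG. No methylation or binding was measured here, so these numbers describe the DNA alone.

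The libraries held between 179454146 and 234726019 UMIs, and 33448 cells were kept, between 5869 and 11938 per library. The cHet Rep1 library stood apart, with 60.0% of its UMIs in kept cells against 86.1 to 91.6% in the others. Libraries of the same kit shared 87 (Rep1) and 71 (Rep2) barcodes, and libraries of different kits shared 0. Of 21 clusters, 14 were named by their markers and gave 9 cell types with 19350 cells, which were the epithelium, the endothelium, the anterior and posterior second heart field (aSHF and pSHF), cardiac muscle, multilineage primed progenitors (MLPs), branchiomeric muscle (BrM), mesenchyme and neuronal cells. Each name stands for cells like that type, and 14098 cells (37.4 to 50.5% of a library) stayed unnamed. Markers of other cells were low over the kept cells of a library, with a summed level of 7.81 to 11.7 CPM (counts scaled to a fixed library total) for 4 neural crest markers, 1.72 to 9.41 CPM for 5 erythroid markers and 1.05 to 2.14 CPM for 5 macrophage markers, of which up to 2 were at 0. *Kmt2d*, the targeted gene, was at 19.1 CPM in cHet Rep1, 17.3 in cKO Rep1, 21.3 in cHet Rep2 and 19.0 in cKO Rep2. The log2 fold change of *Kmt2d* was −0.16 ± 0.07 (SE), adjusted p = 0.956 in edgeR's quasi-likelihood test. Where the floxed exons lie relative to the counted 3′ end was not given in the sources used here, so this level was not taken as a check of the genotype labels.

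In all kept cells together, the 9 genes had nearly the same level in cKO and cHet. No gene passed an adjusted p of 0.05 (0 of 9, with 0 of 9 also at an unadjusted p under 0.05), and of the 20126 genes tested 0% were called, with 5.66% at an unadjusted p under 0.05 and, in DESeq2, 63 genes called. The 95% intervals of the log2 fold changes lay between −0.25 and 0.20, that is between 0.843-fold and 1.15-fold, for all 9 genes. With 2 libraries per genotype and a block, edgeR took the spread of a gene in part from other genes, so the intervals do not rest on these pairs alone. For *Kmt2a*, *Kmt2e*, *Kdm5a* and *Kdm5b* the gap between replicates was larger than the gap between genotypes within either replicate, with TMM scaling and by library totals. Kit, pool size and the Cell Ranger version of the headers cannot be told apart in this gap. TMM lowered the log2 difference of Rep2 over Rep1 by the same amount for every gene (−0.31), so the gaps between replicates of the other genes depended on the scaling. Each gene rested on 1681 to 52977 UMIs per library. The CPM values were scaled by TMM, and because UMIs at the 3′ end were not set against transcript length between genes, a level is compared only within a gene.

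*Kmt2a*, a writer at *Hox* and other developmental promoters, was at 101 CPM in cHet Rep1, 107 in cKO Rep1, 157 in cHet Rep2 and 154 in cKO Rep2. Both Rep2 libraries were well above both Rep1 libraries, and the genotypes differed by a log2 fold change of 0.03 ± 0.05 (SE). *Kmt2b*, its closest relative, was at 29.1, 31.7, 31.5 and 27.8 CPM in the same order of libraries. Its log2 fold change was 0.12 in Rep1 and −0.18 in Rep2, so the replicates had opposite signs, and the fit over both gave −0.03 ± 0.09. *Kmt2e* was at 145, 150, 180 and 188 CPM. The cKO library was slightly higher in each replicate, with a log2 fold change of 0.05 ± 0.05.

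*Setd1a*, the catalytic subunit of a promoter-bound complex, was at 19.7, 20.7, 19.6 and 18.2 CPM, and its paralog *Setd1b* at 31.2, 29.2, 31.6 and 31.4 CPM. Their log2 fold changes were −0.02 ± 0.08 and −0.05 ± 0.07. *Men1*, which encodes the menin scaffold of KMT2A and KMT2B, was the least counted of the 9 genes, at 14.8, 15.8, 16.4 and 14.9 CPM. The replicates again had opposite signs, and the log2 fold change was −0.02 ± 0.09, with a 95% interval from −0.24 to 0.20.

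Among the erasers, *Kdm1a* was at 257 CPM in cHet Rep1, 261 in cKO Rep1, 196 in cHet Rep2 and 212 in cKO Rep2. Its level was lower in the Rep2 libraries with TMM scaling, but by library totals the mean log2 difference of Rep2 over Rep1 was −0.036. It had the smallest unadjusted p of the 9 genes (0.218 in edgeR's quasi-likelihood test) and a log2 fold change of 0.07 ± 0.05. The cKO library was higher in both replicates with TMM scaling, while by library totals the log2 difference was −0.020 in Rep1 and 0.099 in Rep2. *Kdm5a* was at 76.8, 78.0, 116 and 119 CPM and *Kdm5b* at 171, 167, 228 and 227 CPM. Their log2 fold changes between genotypes were 0.03 ± 0.05 and −0.02 ± 0.05, while the mean log2 difference of Rep2 over Rep1 was 0.60 for *Kdm5a*, 0.58 for *Kmt2a*, 0.42 for *Kdm5b*, 0.32 for *Kmt2e* and −0.35 for *Kdm1a*. For the other 4 genes this mean was at most 0.10 in size with TMM scaling, though Rep2 over Rep1 was 0.12 in cHet and −0.19 in cKO for *Kmt2b*, 0.14 in cHet and −0.08 in cKO for *Men1*, and −0.19 in cKO for *Setd1a*. By library totals Rep2 was higher by 0.91 for *Kdm5a*, 0.89 for *Kmt2a*, 0.74 for *Kdm5b*, 0.63 for *Kmt2e*, 0.37 for *Setd1b*, 0.34 for *Men1*, 0.27 for *Kmt2b* and 0.22 for *Setd1a*. Adjusted p-values of all 9 genes were 0.999, 5 of 9 had the same direction in both replicates (3 of 9 by library totals) against 50.7% of all genes tested, and the median log2 fold change was −0.02 against 0.02 over all genes.

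**Figure D1:**
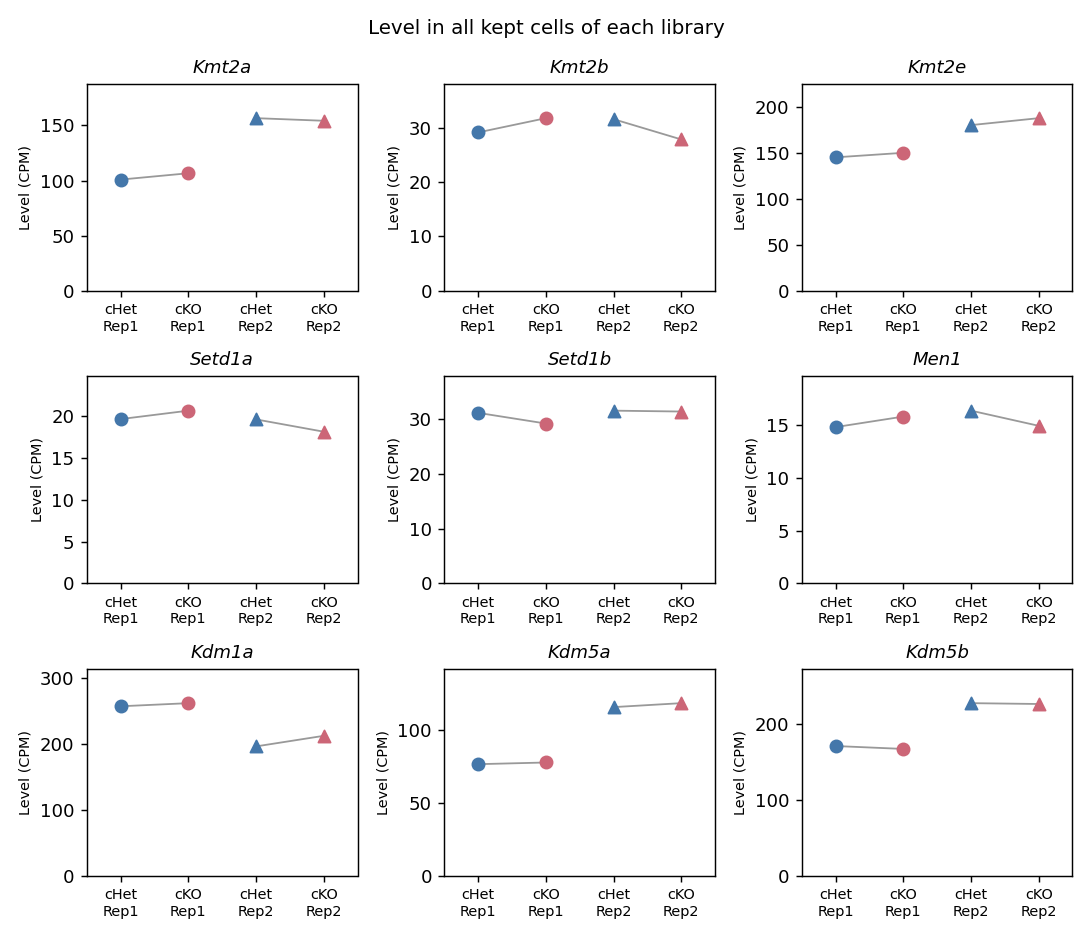
Level of each of the 9 genes in all kept cells (y axis, CPM, from 0) in the 4 libraries (x axis), with cHet in blue, cKO in red, Rep1 as circles, Rep2 as triangles and a line joining the libraries of a replicate. The lines are nearly flat, while *Kmt2a*, *Kmt2e*, *Kdm5a* and *Kdm5b* are higher in Rep2, and *Kdm1a* is lower in Rep2 with the TMM scaling plotted, though not in the cKO pair by library totals.

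**Figure D2:**
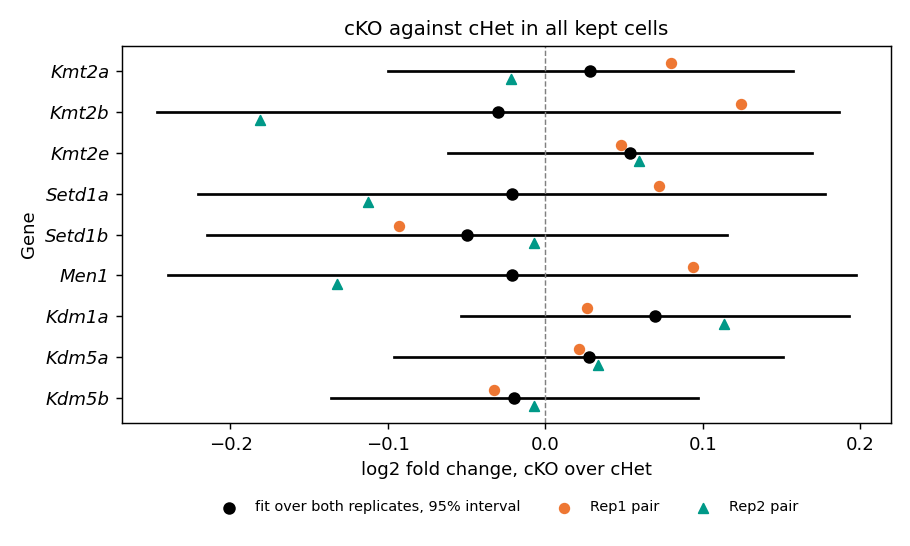
Log2 fold change of cKO over cHet in all kept cells (x axis) for the 9 genes (y axis), with the fit over both replicates and its 95% interval in black, the Rep1 pair as orange circles and the Rep2 pair as green triangles. Each interval includes 0 and none reaches beyond −0.25 or 0.20.

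Within the 9 cell types, 81 pairs of a gene and a type were tested and 0 were called, with 0 also at an unadjusted p under 0.05 in edgeR's quasi-likelihood test, against 5.71% of the pairs of all genes. Of all genes tested, 1.78% were called in BrM, 0.707% in MLPs, 0.323% in pSHF, 0.0900% in mesenchyme, 0.0764% in cardiac muscle, 0.0618% in the endothelium, 0.0424% in the epithelium and 0% in aSHF and neuronal cells, where 4.29% and 4.52% of genes had an unadjusted p under 0.05. In the unnamed cells 0 of 9 genes were called, against 0.358% of all genes. The log2 fold changes ran from −0.24 to 0.37, 36 of the 81 were above 0 and 45 below, and 38 had the same sign in both replicates, against 51.0% of the pairs of all genes. In size 80 of 81 were under 0.25, against 70.6% of all genes tested in cardiac muscle to 83.8% in aSHF. These shares were over genes of every level tested and were not matched to the counts of the 9 genes. The 95% interval stayed within ±0.5 for 74 pairs and within ±1 for 80, so a change of 1 on the log2 scale was outside the interval everywhere but in 1 pair.

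That pair was *Setd1a* in cardiac muscle, which also had the largest difference. Its level there was 14.0 CPM in cHet Rep1, 16.7 in cKO Rep1, 9.45 in cHet Rep2 and 12.7 in cKO Rep2. The cKO library was higher in both replicates, but the cKO Rep1 value rested on 33 cells and 13 UMIs, and the log2 fold change of 0.37 ± 0.32 (SE) had a 95% interval from −0.28 to 1.02 (adjusted p = 1.00 in edgeR). *Men1* in the epithelium followed, with 13.8, 12.6, 15.3 and 12.3 CPM. Both cKO libraries were below both cHet libraries, with a log2 fold change of −0.24 ± 0.15 and a 95% interval from −0.58 to 0.10 (adjusted p = 0.999 in edgeR). The CPM values of a type differ slightly between this comparison and that across types, because TMM scaled each set of sums by itself.

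In the MLPs, progenitors of the caudal pharyngeal arches, *Kdm1a* was at 274 and 280 CPM in cHet and cKO of Rep1 and at 203 and 223 CPM in cHet and cKO of Rep2. Its log2 fold change there was 0.09, with a 95% interval from −0.03 to 0.21, and the cKO library was higher in both replicates. In the pSHF, which gives rise to the inflow of the heart, *Setd1b* was at 34.7, 26.2, 29.8 and 29.7 CPM. The Rep1 pair differed and the Rep2 pair did not, and the log2 fold change of −0.15 had a 95% interval from −0.42 to 0.12. Over the 9 types, the log2 fold change ran from −0.07 (endothelium) to 0.07 (neuronal cells) for *Kmt2a*, from −0.18 (pSHF) to 0.13 (cardiac muscle) for *Kmt2b* and from −0.04 (cardiac muscle) to 0.07 (pSHF) for *Kmt2e*. For *Kdm5a* it ran from −0.12 (endothelium) to 0.08 (pSHF) and for *Kdm5b* from −0.10 (cardiac muscle) to 0.03 (endothelium), and none of these values passed the test. Whether the response to genotype differed among the 9 types was tested by 8 terms in 1 edgeR fit with 8 residual degrees of freedom. It was called for 0 of 9 genes and for 0.357% of 16791 genes, and the smallest unadjusted p was 0.243 (*Kdm5a*, adjusted p = 1), with 6.62% of all genes at an unadjusted p under 0.05.

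**Figure D3:**
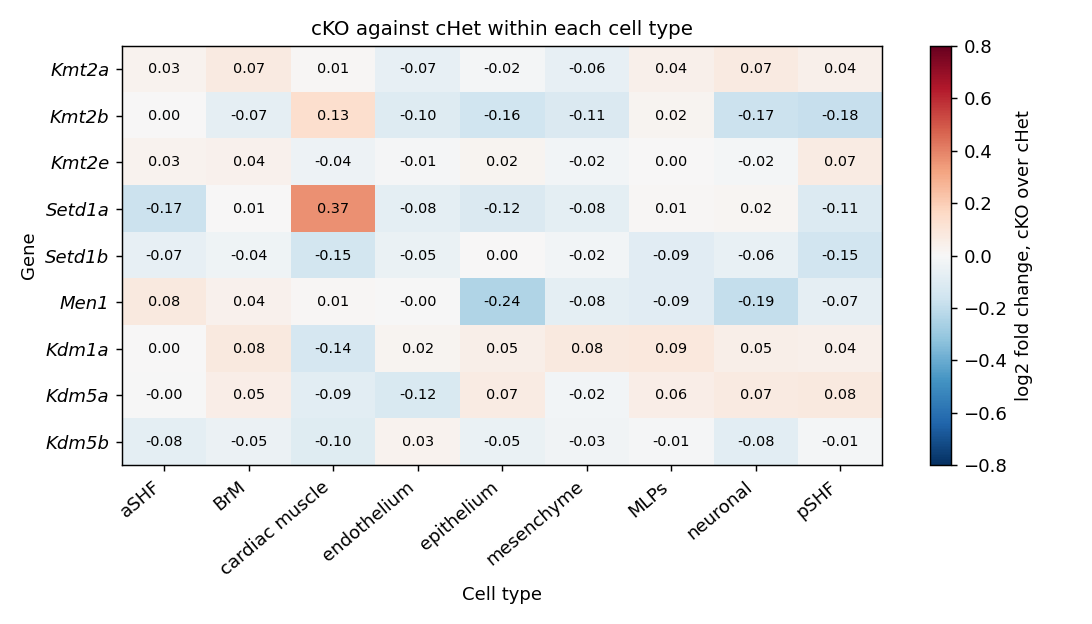
Log2 fold change of cKO over cHet (color, blue below 0 and red above 0, printed in each cell) for the 9 genes (y axis) in the 9 cell types (x axis). The only value past 0.25 in size is *Setd1a* in cardiac muscle, at 0.37.

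Across cell types many pairs differed beyond the spread left once the level of each library was removed, but most differences were small. Each type was set against the mean of the other 8 types, and 41 of 81 pairs (50.6%) passed an adjusted p of 0.05, 24 higher and 17 lower, against 51.3% of the 142443 pairs of all genes. Past 0.25 on the log2 scale as well were 13 pairs, against 38.2% of all pairs. Past 0.5 were 3, for which the share of all pairs was not computed. Those 3 were *Men1* and *Kdm5b* in the endothelium and *Setd1a* in cardiac muscle. The fold between the highest and the lowest type was 2.10 for *Men1*, 1.90 for *Kdm5b*, 1.51 for *Setd1a*, 1.46 for *Setd1b*, 1.42 for *Kmt2a*, 1.41 for *Kmt2e*, 1.34 for *Kdm1a* and 1.29 for both *Kmt2b* and *Kdm5a*. Among genes of a similar level, 72.1% had a smaller range over types than *Kdm5b* and 52.8% a smaller range than *Men1*. For the other 7 genes this share was 8.49 to 32.2%, so their range was narrower than that of most genes counted as often.

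**Figure D4:**
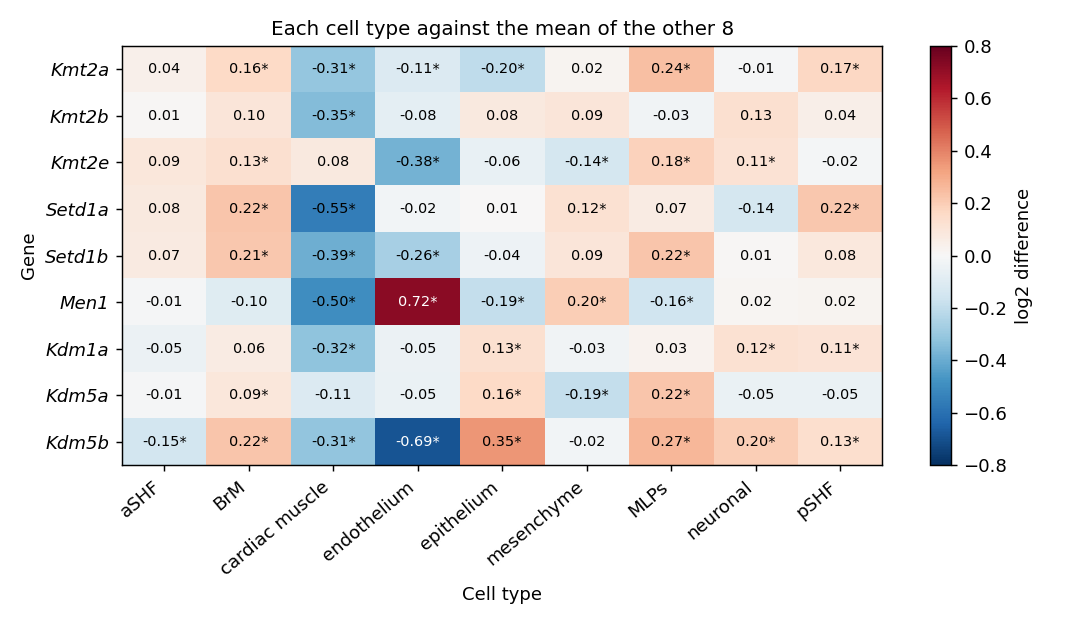
Log2 difference of each cell type (x axis) from the mean of the other 8 types (color and printed value) for the 9 genes (y axis), with an asterisk at an adjusted p under 0.05. *Men1* and *Kdm5b* have the largest values, 0.72 and −0.69, both in the endothelium, and cardiac muscle is lower for 7 of 9 genes.

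The 2 largest single differences were in the endothelium, the lining of the pharyngeal arch arteries and the heart. *Men1* was at 22.7 CPM in cHet Rep1, 26.1 in cKO Rep1, 22.4 in cHet Rep2 and 19.7 in cKO Rep2. These 4 values were above every value of *Men1* in any other type, the next of which was the mesenchyme at 15.4, 15.5, 18.1 and 16.4 CPM. *Men1* was thus higher in the endothelium than in the other types by 0.72 ± 0.06 on the log2 scale (adjusted p = 5.91e-12 in edgeR), and the gap to the mesenchyme was 4.73 SD of a type's library-centred spread. *Kdm5b*, an eraser of the higher methylation states, went the other way, at 111, 108, 133 and 140 CPM. The endothelium had the lowest mean of *Kdm5b* and was below the mean of the other types in all 4 libraries, with a log2 difference of −0.69 ± 0.05 (adjusted p = 9.1e-15 in edgeR).

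*Kmt2e* was lowest in the endothelium as well, at 109, 106, 141 and 141 CPM, each below every other type of the same library. The log2 difference was −0.38 ± 0.04 (adjusted p = 1.9e-09 in edgeR). *Setd1b* and *Kmt2a* were lower there by −0.26 and −0.11, so 1 of 9 genes was higher and 4 were lower in the endothelium, where 34.5% of all genes were called higher and 36.4% lower. The call of *Kmt2a* held in 7 of 12 alternatives. It was lost in thinned cells and when cKO Rep1, cHet Rep2 or cKO Rep2 was left out. The endothelium held 2 clusters, and values by cluster are given without a test. In the larger, led by *Emcn*, *Cdh5* and *Tek* (1578 cells), *Men1* averaged 23.8 CPM and *Kdm5b* 116 CPM over the 4 libraries. In the smaller, led by *Etv2*, *Tal1* and *Lmo2* (280 cells), genes of the earliest endothelial and blood progenitors, *Men1* averaged 19.1 CPM and *Kdm5b* 169 CPM. Both genes were thus nearer to the other types in the *Etv2* cluster.

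**Figure D5:**
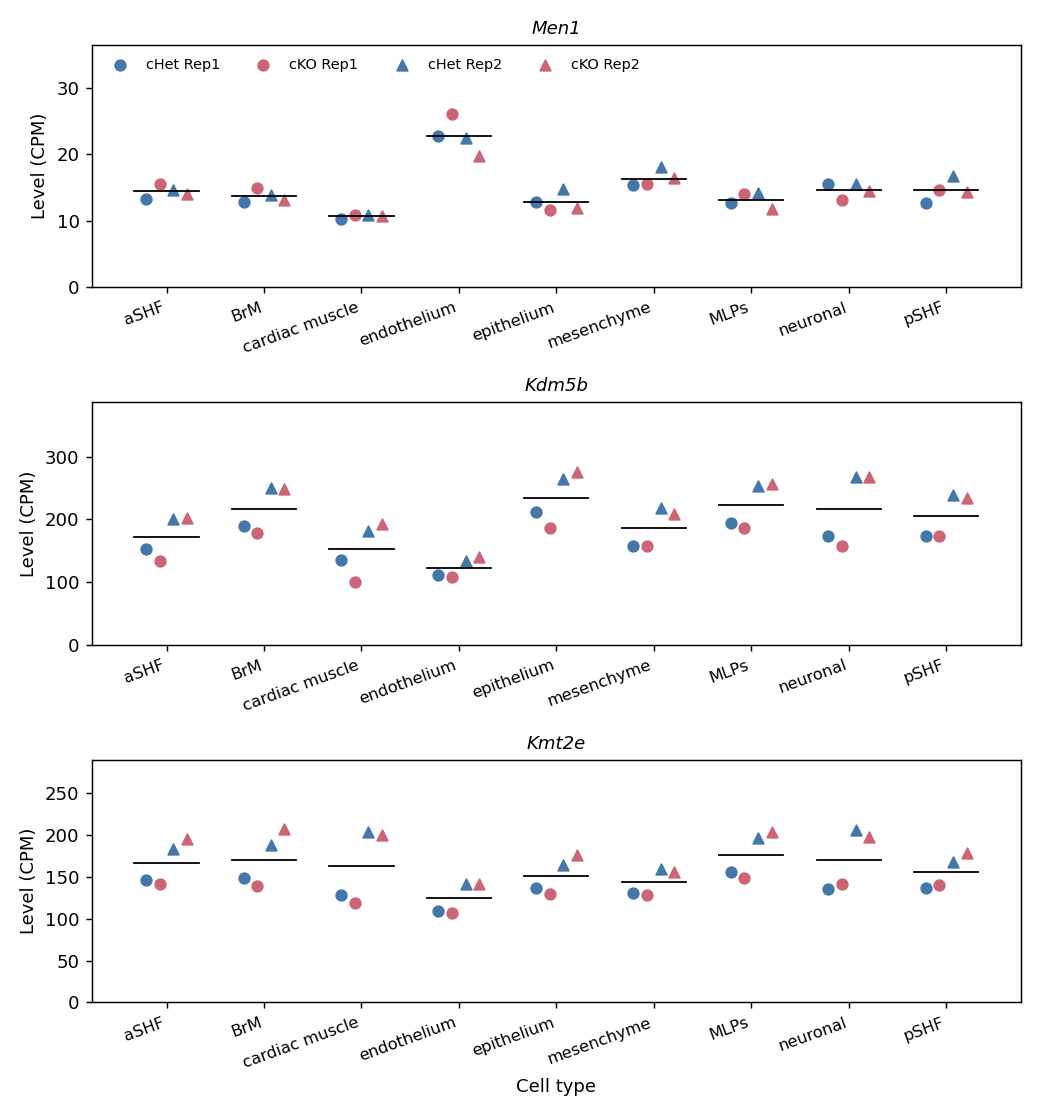
Level of *Men1*, *Kdm5b* and *Kmt2e* (y axes, CPM, from 0) in the 9 cell types (x axis), with a point for each library (cHet blue, cKO red, Rep1 circles, Rep2 triangles) and a bar at the mean of the 4 libraries. The endothelium is highest for *Men1*, at 19.7 to 26.1 CPM, and has the lowest mean for *Kdm5b* and *Kmt2e*.

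Cardiac muscle was the lowest type for 6 of 9 genes, *Kmt2a*, *Kmt2b*, *Setd1a*, *Setd1b*, *Men1* and *Kdm1a*, and was called lower for 7 of 9 and higher for 0 of 9, where 29.6% of all genes were called lower and 30.1% higher. *Setd1a* was at 14.8, 17.5, 10.4 and 13.8 CPM there, and the log2 difference from the other types was −0.55 ± 0.09 (adjusted p = 5.72e-06 in edgeR). It was below the mean of the other types in all 4 libraries. *Men1* was at 10.3, 10.8, 10.9 and 10.7 CPM, with a log2 difference of −0.50. *Setd1b* and *Kmt2b* differed by −0.39 and −0.35, *Kdm1a* by −0.32, and *Kmt2a* and *Kdm5b* by −0.31 each. *Kmt2e* (0.08) and *Kdm5a* (−0.11) were not called. Cardiac muscle was the smallest type, with 132, 33, 217 and 245 cells in the 4 libraries. With every cell thinned to 5000 UMIs, the differences of *Men1* and *Kdm5b* in cardiac muscle were −0.15 and −0.07 and no longer called (adjusted p = 0.636 and 0.605 in edgeR). Thinning also left fewer counts, with 33 cells of 5000 UMIs in cKO Rep1. Whether the smaller differences came from the depth or from the fewer counts was not tested.

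Of the KMT2 and SETD1 genes, *Kmt2a*, *Kmt2e* and *Setd1b* had their highest mean in the MLPs, *Setd1a* in BrM and *Kmt2b* in neuronal cells. In the MLPs *Kmt2a* was at 112, 111, 172 and 180 CPM, with a log2 difference of 0.24 ± 0.03 (adjusted p = 8.22e-07 in edgeR). Next came the pSHF (0.17) and BrM (0.16), and the gap between the MLPs and the pSHF was under 1 SD. It was lower in the epithelium (−0.20), the endothelium and cardiac muscle, each below the mean of the other types in all 4 libraries. The call held in 7 of 12 alternatives in the endothelium, against 11 of 12 in the epithelium and in cardiac muscle. *Setd1b* was also highest in the MLPs, at 33.5, 31.3, 33.1 and 30.9 CPM (log2 difference 0.22), and nearly as high in BrM (0.21). *Setd1a* was highest in BrM, the precursors of the face and neck muscles, at 21.1, 22.4, 20.8 and 20.1 CPM (0.22), with the pSHF at the same mean. *Kmt2e* was highest in the MLPs (0.18) and was higher in BrM (0.13) and neuronal cells (0.11) and lower in the mesenchyme (−0.14). These calls were lost without cKO Rep2 in BrM and the mesenchyme and without cHet Rep2 in neuronal cells. The call in neuronal cells was also lost in thinned cells and without a filter on low counts. *Kmt2b* varied little, with 24.2 to 31.3 CPM as the mean of a type, and was called in cardiac muscle alone in this fit.

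Of the erasers, *Kdm5b* was highest in the epithelium, which holds the pharyngeal pouches, clefts and otic vesicle, at 212, 186, 264 and 276 CPM. The log2 difference was 0.35 ± 0.04 (adjusted p = 5.95e-09 in edgeR), with the epithelium above the mean of the other types in all 4 libraries. It was higher too in the MLPs (0.27), BrM (0.22), neuronal cells (0.20) and pSHF (0.13), and lower in aSHF (−0.15). The call in the pSHF was lost without either Rep2 library and in thinned cells, and that in aSHF in thinned cells and at a resolution of 1.2. In neuronal cells the log2 differences of *Kdm5b* were 0.09 and 0.08 in the Rep1 libraries against 0.33 and 0.31 in Rep2. *Kdm5a* was highest in the MLPs, at 85.9, 87.1, 130 and 137 CPM (0.22), and higher in the epithelium (0.16). In BrM (0.09, adjusted p = 0.0485 in edgeR) it was called in 4 of 12 alternatives. It was lowest in the mesenchyme, at 70.6, 65.5, 101 and 103 CPM (−0.19). *Kdm1a* was nearly level over 8 types, with means of 225 to 249 CPM, with the highest in the epithelium (0.13), and was called higher too in neuronal cells (0.12) and pSHF (0.11). In neuronal cells its log2 differences were −0.03 and 0.06 in the Rep1 libraries against 0.23 and 0.25 in Rep2, and the call was lost without either Rep2 library. In the pSHF it was called in 5 of 11 alternatives and lost without any of 3 libraries, cKO Rep1 and both of Rep2. Cardiac muscle stood apart, at 235, 177, 166 and 170 CPM, by 3.59 SD from aSHF above it.

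By type, BrM was higher for 6 of 9 genes and lower for 0 (against 25.6% and 21.6% of all genes), and the MLPs were higher for 5, including the highest level of 4, and lower for 1 (24.1% and 25.0%). The pSHF was higher for 4 and lower for 0 (23.0% and 17.4%), neuronal cells for 3 and 0 (21.8% and 23.3%), the epithelium for 3 and 2 (25.9% and 27.9%), the mesenchyme for 2 and 2 (32.9% and 25.2%) and aSHF for 0 and 1 (21.4% and 15.6%). The 1 lower gene in the MLPs, *Men1*, was at −0.16 on the log2 scale and turned to 0.06 when cells were thinned (adjusted p = 0.721 in edgeR). In the mesenchyme *Setd1a* (0.12) was called in 4 of 12 alternatives and was lost when any library was left out. *Men1* was higher there (0.20), and the call was lost in thinned cells and without either Rep2 library. Its lower level in the epithelium (−0.19) was not called in DESeq2, by library totals, in thinned cells or without cKO Rep2. Of the 72 gaps between neighbours in the order of types, 52 were under 1 SD of the library-centred spread and 7 over 2 SD. Most neighbours thus did not differ beyond that spread. The 7 gaps lay at the endothelium for *Men1*, *Kdm5b* and *Kmt2e* and at cardiac muscle for *Kdm1a*, *Men1*, *Kdm5b* and *Setd1a*.

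Clusters within a type and among the unnamed cells added to this range, again without a test. *Kdm5b* averaged 273 CPM in the epithelial cluster led by *Sostdc1*, *Foxi2* and *Trp63*, against 225 and 209 CPM in those led by *Vgll2* and *Foxe1* and by *Lmx1a*. The neuronal cells held a cluster led by genes of differentiating neurons such as *Neurod1* and *Tubb3*, and another led by *Hes5* and *Rfx4*, genes of neural progenitors, which had 322, 248, 78 and 61 cells in the 4 libraries and no neuronal marker among its 10 leading genes. At a resolution of 1.2, 289 cells were in a neuronal cluster led by *Hes5* and *Rfx4*, and an unnamed cluster of 453 cells was led by *Barx1*, the neural crest marker *Tfap2b* and *Dlx* genes. The *Neurod1* cluster had 170, 126, 173 and 217 cells. At the resolution of 0.8, *Kdm5b* averaged 255 CPM in the *Neurod1* cluster and 154 CPM in the *Hes5* cluster. Of all 21 clusters *Kmt2b* was highest in the *Neurod1* cluster (35.9 CPM) and lowest in the *Hes5* cluster (23.3 CPM). *Kdm1a* averaged 276 CPM in the *Neurod1* cluster and 226 CPM in the *Hes5* cluster. *Kmt2e* averaged 189 and 132 CPM in the same order, against 142 CPM in the mesenchyme. *Setd1a* (16.7 and 18.0 CPM) and *Setd1b* (28.8 and 29.9 CPM) went the other way. *Kmt2e* was highest in an unnamed cluster led by *Pcdh9* and *Dach2*, at 230 CPM, and *Setd1b* in an unnamed cluster led by *Gabra2* and *Lsamp*, at 37.8 CPM. The neuronal name was not stable, since another random seed of the clustering gave it to 51.8% of these cells. With that seed, *Kmt2b* was called higher in neuronal cells, at 0.31 against 0.13 (adjusted p = 0.00038 against 0.0986 in edgeR), as it was in 6 of 12 alternatives in all. With the seed of 0 its log2 differences there were −0.03 and −0.04 in the Rep1 libraries against 0.42 and 0.18 in Rep2. It was not called when either Rep2 library was left out.

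The genes also differed in which other genes followed them over the 36 sums of a library and type, each centred within its library. *Kdm5b* was most like *H3f3a* (r = 0.95), which encodes the histone variant H3.3, *H2afv* (0.95) and *Bdnf* (0.94), and *Kdm1a* most like *Wipi2* (0.92), *H3f3b* (0.90) and *Ptma* (0.89). *Men1* was most like *Rap1a* (0.93), *Pgm2* (0.93) and *Kti12* (0.92). *Setd1a* was most like *Chek1*, *Timeless* and *Haus6* (0.87 each), which act in DNA replication checkpoints and the spindle, and *Setd1b* like *Paics* (0.93) and *Zfp518b* (0.91). *Kmt2a* was most like *Srek1* (0.90), *Tsc1* (0.90) and *Ddah2* (0.87), *Kmt2b* like *Trp53rka* (0.82), *Ddx5* (0.79) and *Ybey* (0.77), *Kmt2e* like *Zfp516* (0.87), *B630019K06Rik* (0.85) and *Mpnd* (0.85), and *Kdm5a* like *Ncoa2* (0.85), *4930588K23Rik* (0.83) and *Spry1* (0.81). Between the 9 genes, r ran from 0.72 (*Kmt2a* and *Setd1b*) to −0.67 (*Kmt2e* and *Men1*). The points share libraries and depth, and r with the summed UMIs of a point was 0.68 for *Setd1b*, 0.54 for *Setd1a*, 0.53 for *Kmt2a* and 0.02 for *Kmt2e*.

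The other genes of the pathway were read from 8 lists with 50 genes. In all cells 0 of the 50 were called between genotypes, with 4 at an unadjusted p under 0.05, and their median log2 fold change was 0.02, the same as over all genes. The KMT2D and KMT2C complex ran from −0.16 (*Kmt2d*) to 0.09, the core subunits shared by H3K4 writers from −0.02 to 0.09, the SETD1 complex subunits from −0.02 to 0.04 and the menin complex partners from −0.01 to 0.07. The readers of H3K4 methylation ran from −0.01 to 0.09 and the KDM1A corepressor partners from −0.18 (*Rcor2*, adjusted p = 0.956 in edgeR) to 0.15. The other SET domain enzymes ran from −0.63 to 0.04. The lowest was *Smyd1*, a muscle gene, at 12.5, 5.39, 19.0 and 17.7 CPM, with a log2 fold change of −1.21 in Rep1 and −0.10 in Rep2 (adjusted p = 0.848 in edgeR). Cardiac muscle cells were 2.25%, 0.525%, 2.32% and 2.05% of the kept cells of the same libraries, and within cardiac muscle *Smyd1* was at 319, 257, 507 and 518 CPM, with a log2 fold change of −0.12 (adjusted p = 1.00 in edgeR).

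Within the cell types, 1 of these genes was called, *Kdm5d* in the MLPs. *Kdm5d*, a Y-linked eraser, was at 7.38 CPM in cHet Rep1, 13.3 in cKO Rep1, 11.8 in cHet Rep2 and 20.2 in cKO Rep2. The cKO library was higher in both replicates, with a log2 fold change of 0.80 ± 0.14 (adjusted p = 2.3e-05 in edgeR), where 0.707% of all genes were called in the MLPs. In all cells the log2 fold change of *Kdm5d* was 0.37 (adjusted p = 0.621 in edgeR), and it was above 0 in both replicates in 7 types and below 0 in both in BrM and the epithelium. Other Y-linked genes were also higher in the cKO pools, by library totals without TMM, whereas the *Kdm5d* values were scaled by TMM. Their log2 fold changes in Rep1 and Rep2 were 0.18 and 0.34 for *Ddx3y*, 0.37 and 0.39 for *Eif2s3y* and 0.35 and 0.40 for *Uty*. By library totals too, *Xist*, expressed from the inactive X chromosome of females, was at 0.015 and −0.082. The part of the share of male embryos in *Kdm5d* was not tested.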

How the data were processed

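Libraries were sequenced from sorted cells with 10x Genomics 3′ kits. The authors deposited raw counts of UMIs for each gene in each barcode, made by Cell Ranger, and the file headers name version 7.0.1 for Rep1 and 8.0.1 for Rep2, while the processing notes name 8.0.1 and mm10. The SoupX correction described in the study's methods is not in these counts. Barcodes with at least 3000 genes, at most 10% mitochondrial and at most 5% hemoglobin UMIs were kept. Scrublet's automatic threshold marked 0.0150 to 1.74% of barcodes, so the barcodes with the highest scores were removed up to the rate expected for the kit (3.90 to 5.33%), 358 to 637 per library. Clustering (scanpy 1.11.5, leidenalg 0.10.2) used 2000 variable genes without the 9 genes and the 50 genes of the pathway lists, 30 principal components aligned between replicates, 20 neighbors, a resolution of 0.8 and a seed of 0. A cluster was named where at least 3 markers were at least 2-fold higher than in other cells and found in at least 10% of its cells, or at least 5 markers where its 10 leading genes held no marker of the name. This naming rule was set after a look at the clusters.

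Counts were summed per library and cell type, so that cells were not replicates. Sums were tested by edgeR 4.0.16 (quasi-likelihood test, TMM, filterByExpr, R 4.3.3) with Benjamini-Hochberg adjustment over all genes tested and a threshold of 0.05. The genotype fits held the replicate as a block, since each replicate had its own kit, and same-numbered libraries deviated together (correlation 0.603 to 0.841 by group of cells). Types were compared in 1 fit with the library as a block. Nothing in the labels ties a library to more than 1 pool. The p-values between genotypes measure the spread left with the replicate as a block, taken in part from other genes. Those across types measure the spread of a type once the level of each library is removed, and not the spread between pools. The scripts were tested on simulated data with known changes. A log2 change of 0.5 between genotypes was found for 91 of 100 genes in all cells. Within types it was found for 7 of 100 in cardiac muscle, 34 in neuronal cells and up to 94 in the mesenchyme. A genotype change of 0.5 in the endothelium alone was found for 20 of 100 genes by the test for a response that differed between types. That test can thus miss such a change. All 9 genes were tested in each comparison and named with their highest and lowest types and the 3 genes most like them by Pearson's r, of which 1 is not reported here. Of the other lists, genes past the threshold and the 3 with the largest change in all cells were named. Clusters, gaps between types and single pairs named for a change in thinned cells or with another seed were chosen after their values were seen. The 9 genes and the lists were chosen with earlier results of these data known. Positions came from GENCODE M21 on GRCm38, which held 32158 of the 32285 identifiers, 97.8% with the same symbol. Alternatives were DESeq2 1.42.0, library totals without TMM, no filter on low counts, cells thinned to 5000 UMIs, at most 5% mitochondrial UMIs, no block, a resolution of 1.2 and leaving out each library, and, chosen after seeing the data, another seed and a fit without cardiac muscle. Intervals and fits cover no error of the naming of cells.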

Additional observations from a re-analysis of the deposited data

How the results depend on the processing

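None of the 9 genes was called between genotypes in all cells under 10 alternatives, in any cell type under 12, or for a response that differed between types under 12. The fits that left out a library kept 1 library of a genotype, so they say nothing about the stability of these counts. In all cells the fits by library totals, with at most 5% mitochondrial UMIs and with no block called 0 of all genes tested. The fit with no block for a response that differed between types called 0 of all genes as well. These fits say nothing about stability either. Over all genes in all cells, DESeq2 called 63, the fit without a filter 91 and thinned cells 9, against 0. Library totals without TMM lowered the log2 fold change of all 9 genes by nearly the same amount, which put *Kmt2a* at −0.0016 and *Kdm5a* at −0.0025. With cells thinned *Setd1a* was at 0.033. With 1 library left out, in fits without the kit as a block, the log2 fold change ran from −0.29 to 0.33 for *Kmt2a*, −0.12 to 0.044 for *Kmt2b*, −0.14 to 0.21 for *Kmt2e*, −0.11 to 0.051 for *Setd1a*, −0.12 to 0.0041 for *Setd1b*, −0.092 to 0.016 for *Men1*, −0.15 to 0.27 for *Kdm1a*, −0.33 to 0.32 for *Kdm5a* and −0.27 to 0.19 for *Kdm5b*. These ranges include the difference between replicates, with their kits, pool sizes and Cell Ranger versions.

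Across types, 41 of 81 pairs were called, against 51.3% of the pairs of all genes. Cells thinned to 5000 UMIs gave 25, against 39.5% of all pairs, and the fit with no replicate block, in which the pairing of types by library was dropped, gave 15, against 30.7%, so fewer pairs of all genes were called as well. Leaving out a library gave 30 to 43, against 41.0% to 47.7%. A resolution of 1.2 gave 38 of 72 pairs in 8 types, against 53.6%. The other alternatives with 81 pairs gave 40 to 47, against 31.5% to 53.2%. Without cardiac muscle, 28 of 34 called pairs were still called in the same direction. Called under each of the 12 alternatives that kept cardiac muscle were 8 pairs, which were *Kdm1a*, *Kmt2b*, *Setd1a* and *Setd1b* lower in cardiac muscle, *Kdm5b* and *Kmt2e* lower and *Men1* higher in the endothelium, and *Setd1b* higher in BrM. Setting the fit without the block aside, there were 21. At a resolution of 1.2 no cluster was named pSHF. Of aSHF, neuronal and mesenchyme cells 66.5%, 69.7% and 70.5% kept their name there, against 93.8 to 100% in the remaining types. Counts were lowest in cardiac muscle of cKO Rep1, where *Men1* had 8 UMIs and *Setd1a* 13.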

Other observations

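In barcodes with fewer than 1000 genes, which were not kept as cells, *Kdm1a* was at 195 and 173 CPM in cHet and cKO of Rep1 and at 213 and 236 CPM in cHet and cKO of Rep2, against 234, 231, 219 and 235 CPM in the kept cells, both by library totals without TMM. *Men1* was at 11.3, 16.2, 12.5 and 16.1 CPM in these barcodes. The libraries held 14762, 1465, 2296 and 2763 of them, with 16321255, 1794731, 1992063 and 2367130 UMIs of all genes. Outside cHet Rep1 *Men1* thus rested on few UMIs. *Kmt2a* was lower in these barcodes, at 59.4, 34.5, 56.2 and 77.7 CPM against 92.0, 94.2, 175 and 171 CPM in the kept cells. What these barcodes hold was not tested.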
